A study of Mus musculus with 13 samples.

Results

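Nbdy and 9 mRNA decapping factors (Dcp1a, Dcp1b, Dcp2, Edc3, Edc4, Ddx6, Xrn1, Patl1 and Lsm14a) were followed in C2C12 cells, an established mouse myoblast line, after knockdown of YBX3. These 10 genes were found by symbol among the 55642 genes of the deposited table, and all 10 were among the 16848 genes with enough counts to be tested. Nbdy was chosen because its level was lower after YBX3 siRNA, so its difference between YBX3 KD and control KD is described without a test. The other 9 were listed for their function, with earlier results of these data known. Poly(A) RNA was sequenced in 13 libraries. Cells were transfected with nontargeting siRNA (control KD) or with siRNA to YBX3 (YBX3 KD), and 24 h later they were kept in growth medium with fetal bovine serum (0 day, proliferating myoblasts) or moved to medium with horse serum (1 day, differentiating myoblasts). All were harvested 48 h after transfection. Proliferating myoblasts gave replicates A to D in each condition, hence 4 libraries per condition. Differentiating myoblasts gave 2 libraries of control KD (replicates C and D) and 3 of YBX3 KD (replicates B, C and D). The labels call them biological replicates, all from this 1 cell line.

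The cap at the 5′ end of an mRNA protects it from exonucleases. DCP2 is the enzyme that removes the cap, DCP1A and DCP1B are its activating partners, and EDC3 and EDC4 hold the complex together and enhance its activity. DDX6, an RNA helicase, and PATL1 and LSM14A, which are RNA-binding scaffold proteins, bring mRNAs to decapping and build processing bodies (P-bodies), the cytoplasmic granules in which these proteins gather. XRN1 degrades the decapped RNA from its 5′ end. Nbdy encodes NoBody, a microprotein that binds EDC4 and whose overexpression reduces the number of P-bodies.

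Nbdy lies on chromosome X (chrX:152506574-152589453, GRCm39, plus strand). The reading frame of its canonical transcript in GENCODE vM39 is shown because it is the whole coding region of the microprotein. It is 207 bases long with the stop codon (chrX:152506696-152506902), lies in exon 1 of 3 and holds 68 codons before the stop. The capitals mark the start and the stop codon.
Nbdy reading frame: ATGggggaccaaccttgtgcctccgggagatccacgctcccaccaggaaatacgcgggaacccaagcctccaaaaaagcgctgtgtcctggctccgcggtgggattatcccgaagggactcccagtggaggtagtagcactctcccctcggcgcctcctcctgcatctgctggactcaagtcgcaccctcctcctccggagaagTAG

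The groups differ by the siRNA, and an siRNA can also pair through its seed with mRNAs it was not designed for. The study lists 4 siRNAs to mouse YBX3, and which of them went into the sequenced cells was not given in the sources used here. Their antisense strands are shown 5′ to 3′ with the seed (bases 2 to 8) in capitals, since the seed decides the matches counted below.
YBX3 siRNA 05: uAUAGUUGuagggacgucg
YBX3 siRNA 06: aUAGUAGCcgcgucuguac
YBX3 siRNA 07: uCCAUAUCcauuucugacg
YBX3 siRNA 08: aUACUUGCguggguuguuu
The listed antisense strand of siRNA 07 is not the complement of its listed sense strand, so its matches are uncertain.

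Matches of 7 bases were sought in the 3′ UTR of 1 transcript per gene, the protein coding transcript with the longest 3′ UTR, on the transcript's strand. Nbdy held 1 match to a YBX3 siRNA, number 08 (chrX:152524163-152524169, exon 5 of 5). Edc3 held matches to siRNAs 05 and 08 among others, Ddx6 held 1 to siRNA 06, and Lsm14a held 1 each to siRNAs 05 and 07. The sites in Nbdy and Lsm14a are shown because these are the genes with the largest differences below, with the match in capitals. The Lsm14a sites are at chr7:34044824-34044830 and chr7:34044619-34044625 on the minus strand, in exon 10 of 10.
Nbdy, siRNA 08: tcaccaaaGCAAGTAatgccctt
Lsm14a, siRNA 05: ttgtcagtCAACTATgtacacac
Lsm14a, siRNA 07: ggagcaggGATATGGgtgggtct
The canonical Nbdy transcript has a 3′ UTR of 495 bases without this match. Of the 17 annotated Nbdy transcripts, 13 hold the letters anywhere in their sequence, among them 4 of the 6 protein coding ones.

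A match to at least 1 of the 4 YBX3 siRNAs was found in 5 of the 10 genes and in 25.2% of the 12980 3′ UTRs of tested genes. The letters GCAAGTA, which match siRNA 08, were found in 3 of the 10 genes (Nbdy, Edc3 and Dcp2) and in 8.56% of all 3′ UTRs. Dcp2, on chromosome 18, has the longest canonical 3′ UTR of the 10 genes (7240 bases) and held a match to siRNA 05 as well. With the canonical transcript, an alternative chosen after seeing the data, 4 of the 10 genes held a match. The share over all tested genes was not computed for that alternative. The controls received siRNA as well. A match to at least 1 of the 4 listed nontargeting siRNAs was found in 9 of the 10 genes, all but Edc4, and in 61.6% of all 3′ UTRs (0.924% to 36.5% for each siRNA). The same 3′ UTR of Nbdy held 1 match to nontargeting siRNA 04. The shares of all 3′ UTRs took no account of 3′ UTR length. Matches are a description of letters, and their part in the levels given here was not tested.

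The libraries held 33451547 to 71811371 estimated counts each. Ybx3 mRNA, the target, lay between 264.5 and 346.6 CPM (counts scaled to the same total in every library) in the 6 control KD libraries and between 28.7 and 71.5 CPM in the 7 YBX3 KD libraries. Of 7 myoblast markers, 6 had counts in every library and 5 exceeded 1 CPM in every library, while Pax7 had 0 to 9 counts. Myod1 had 23 to 188 counts, at 0.613 to 3.31 CPM. Itga7 was the highest of the myoblast markers, at 328 to 579 CPM. Of 7 markers of differentiated muscle, 1 exceeded 1 CPM in every library (Tnnt1). The summed level of the latter was 3.81 to 9.91 CPM in control KD at 0 day and 4.24 to 5.52 CPM at 1 day, and 5.19 to 9.29 CPM and 2.61 to 20.6 CPM in YBX3 KD at 0 day and 1 day, against 606 to 880 CPM for the myoblast markers over all libraries. Of 7 markers of other cells, only Cd68 was above 1 CPM in every library, and Epcam and Sox10 were at 0 counts in all.

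The levels of the 10 genes in control KD were ordered in TPM, that is counts divided by transcript length and scaled to the same total in each library, with the length of 1 canonical transcript per gene. Ddx6 was highest (100.2 ± 5.59 TPM, SD, n = 6), followed by Lsm14a (83.3 ± 6.01 TPM) and Nbdy (54.5 ± 5.19 TPM). Patl1 (40.7 ± 2.40 TPM) and Edc4 (37.9 ± 3.84 TPM) came next and overlapped. Dcp1a (13.6 ± 0.893 TPM), Dcp2 (11.6 ± 1.75 TPM) and Xrn1 (11.5 ± 1.53 TPM) also overlapped. Edc3 (4.29 ± 0.424 TPM) and Dcp1b (0.751 ± 0.178 TPM) were lowest, so Dcp1a was by far the more abundant of the DCP1 pair. All other neighbours in this order did not overlap between control KD libraries. In YBX3 KD, Nbdy stood at 32.9 ± 2.34 TPM (n = 7), within reach of Patl1 (36.9 ± 1.89 TPM) and Edc4 (37.9 ± 3.76 TPM). Nbdy's libraries overlapped with both genes there, whereas in control KD every library of Nbdy was above every library of both. The Nbdy value in TPM depends on which transcript sets the length.

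**Figure D1:**
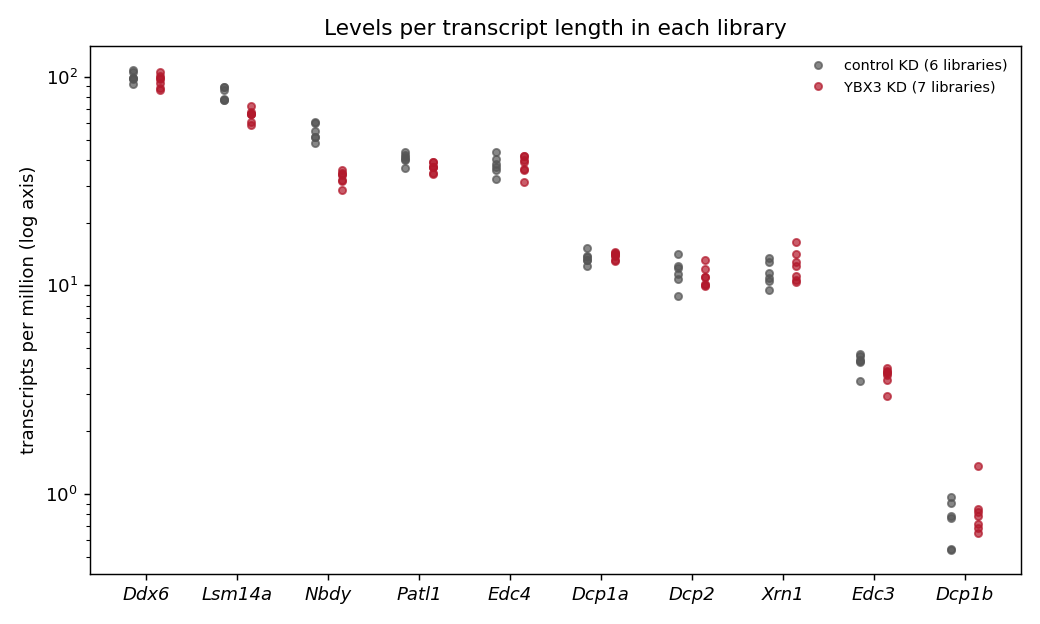
Level of each of the 10 genes in TPM (log axis), 1 point per library, with 6 control KD libraries in grey and 7 YBX3 KD libraries in red. Genes are ordered by their median in control KD, from Ddx6 to Dcp1b; Nbdy follows Lsm14a in control KD and lies beside Patl1 and Edc4 in YBX3 KD.

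Nbdy mRNA was lower in YBX3 KD at both time points. At 0 day it measured 17.2, 17.4, 19.0 and 21.5 CPM in control KD replicates A to D and 10.6, 9.71, 10.9 and 11.1 CPM in YBX3 KD replicates A to D. At 1 day it measured 16.4 and 19.5 CPM in control KD replicates C and D and 11.7, 11.8 and 11.5 CPM in YBX3 KD replicates B to D. The highest YBX3 KD library was thus below the lowest control KD library, which held for 1.08% of all tested genes. The mean in YBX3 KD was 59.7% of that in control KD, and the log2 fold change was -0.75 (SE 0.078) over both days, -0.83 (SE 0.098) at 0 day and -0.62 (SE 0.12) at 1 day. These values chose the gene and carry no test. Nbdy had 438 to 1176 counts per library. The annotation places the pseudogene Smt3h1-ps on the same strand within Nbdy and the noncoding gene Gm45022 on the opposite strand. In bulk RNA, fewer cells with an mRNA and less of it in each cell cannot be told apart.

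**Figure D2:**
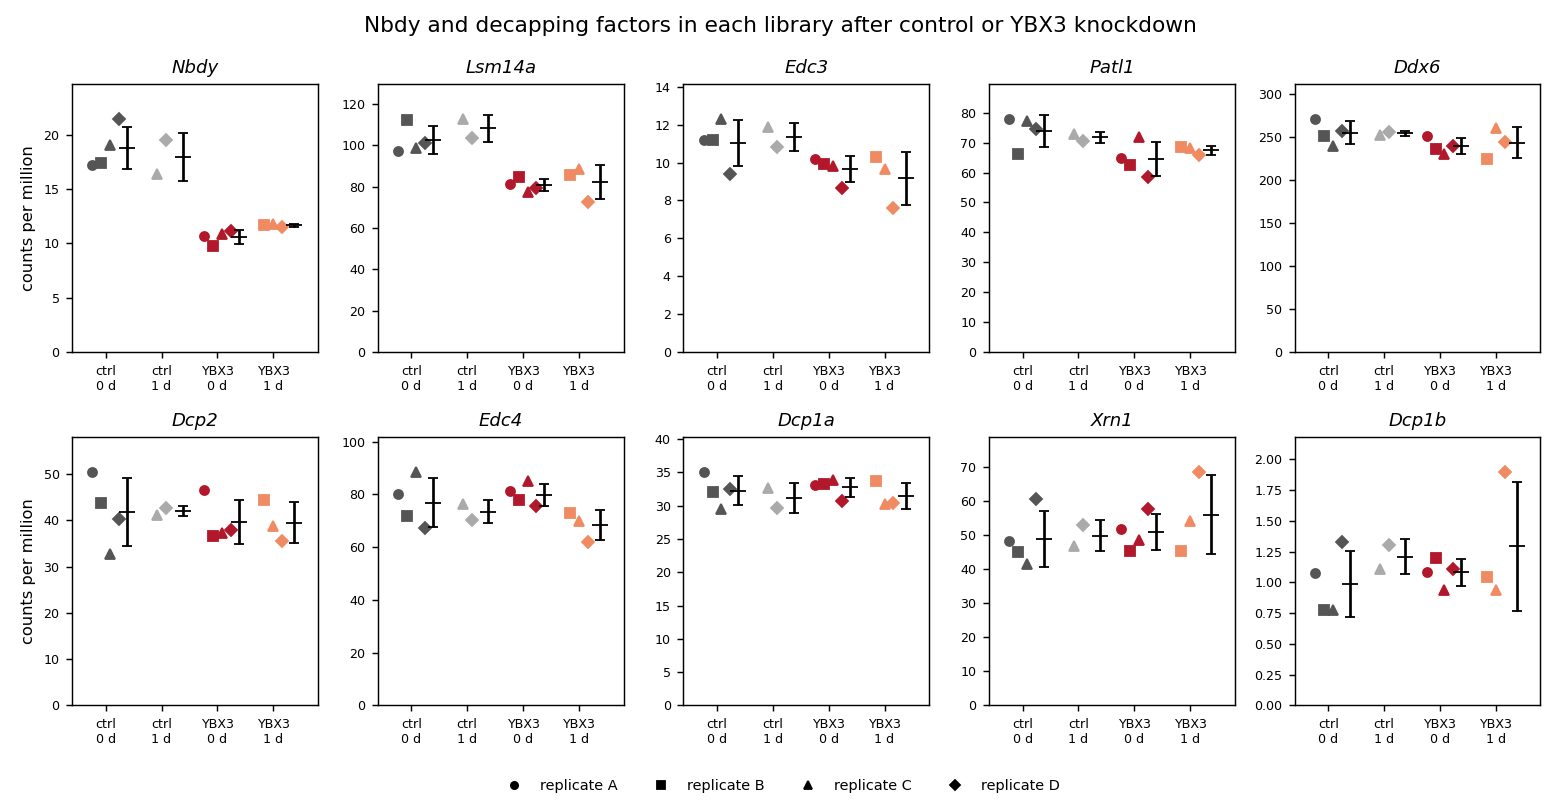
CPM of each gene in each library (y axes start at 0), by group, with the replicate letter as the marker and the group mean and SD in black. For Nbdy and Lsm14a the 7 YBX3 KD points lie under the 6 control KD points, which held for 1.08% of all tested genes. For the other 8 genes the 2 groups overlap.

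The decapping enzyme and its activators differed by less than the spread between libraries. Dcp2 ranged from 32.7 to 50.4 CPM (median 42.0) in control KD and from 35.5 to 46.7 CPM (median 37.9) in YBX3 KD. The log2 fold change was -0.08 (95% interval -0.30 to 0.14, adjusted p = 0.745, edgeR). The 2 groups overlapped widely. Dcp1a ranged from 29.6 to 35.0 CPM (median 32.3) in control KD and from 30.3 to 33.9 CPM (median 33.1) in YBX3 KD. The log2 fold change was 0.02 (95% interval -0.11 to 0.14, adjusted p = 0.912). This interval was the second narrowest among the 9 decapping factors, after that of Ddx6. Dcp1b, with only 34 to 86 counts per library, ranged from 0.774 to 1.33 CPM in control KD and from 0.938 to 1.89 CPM after YBX3 KD. The estimate of 0.12 on the log2 scale had a 95% interval of -0.31 to 0.56 (adjusted p = 0.811), which includes differences of moderate size in either direction. Dcp1a (chr14:30201492-30249020) and Dcp1b (chr6:119152144-119200033) overlap Cacna1d and Cacna1c, which lie on the opposite strand.

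Of the 2 enhancers of decapping, Edc3 was lower in YBX3 KD in each pair of libraries, and Edc4 was not. Edc3 (chr9:57615721-57660290) measured 11.2, 11.2, 12.3 and 9.38 CPM in control KD replicates A to D at 0 day, and 11.9 and 10.8 CPM in replicates C and D at 1 day. In YBX3 KD it measured 10.2, 9.95, 9.82 and 8.65 CPM at 0 day (A to D) and 10.3, 9.64 and 7.57 CPM at 1 day (B to D). The groups overlapped because control KD replicate D at 0 day was low; replicate D was the lowest library of Edc3 in each of the 4 groups. The log2 fold change over both days was -0.24 (SE 0.093), which did not pass the test (adjusted p = 0.228). When the letter entered the edgeR fit as a block, the value was -0.25 with an adjusted p of 0.0444. This was past 0.05, as were 9.78% of all tested genes in that fit, but not past the threshold for a call. DESeq2 with the letter as a block gave Edc3 an adjusted p of 0.00632, also without a call. In that DESeq2 fit 2951 of the 16848 tested genes passed 0.05.

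Edc4, the protein partner of NoBody, was at nearly the same level in both conditions. It ranged from 67.4 to 88.4 CPM (median 74.2) in control KD and from 62.1 to 85.1 CPM (median 75.6) in YBX3 KD. The log2 fold change was -0.00 (95% interval -0.16 to 0.16, adjusted p = 0.986). The 2 time points pointed to opposite sides, with 0.06 (SE 0.094) at 0 day and -0.10 (SE 0.12) at 1 day, and this difference between the days did not pass the test (adjusted p = 1). Edc4 (chr8:106607500-106621653) overlaps Nrn1l on the same strand.

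In the edgeR fit without a block, Lsm14a was the only one of the 9 decapping factors that passed an adjusted p of 0.05 over both days. Of all tested genes, 2.34% passed there. At 0 day it measured 97.4, 113, 98.9 and 101 CPM in control KD replicates A to D and 81.1, 84.7, 77.6 and 79.3 CPM in YBX3 KD replicates A to D. At 1 day it measured 113 and 104 CPM in control KD (C and D) and 85.6, 88.5 and 72.7 CPM in YBX3 KD (B to D). The 2 conditions did not overlap, with every YBX3 KD value under every control KD value. This held for 1.08% of all tested genes (182 genes). Lsm14a fell by 0.36 on the log2 scale (SE 0.061, adjusted p = 0.00991, edgeR's quasi-likelihood test), to a mean of 77.89% of control KD. It was not called, since a call required an adjusted p under 0.001 and a fold change above 1.3 (0.379 on the log2 scale).

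The fold changes of Lsm14a at the 2 time points were alike in size. They were -0.35 (SE 0.080, adjusted p = 0.111) at 0 day and -0.40 (SE 0.10, adjusted p = 0.393) at 1 day. Neither passed on its own in edgeR without a block. With the replicate letter as a block in edgeR, the adjusted p at 0 day was 0.0307, where 2.37% of all tested genes passed 0.05. In DESeq2 without a block Lsm14a passed 0.05 at 0 day and at 1 day, against 3% and 0.902% of all tested genes. With the letter block DESeq2 called Lsm14a at 1 day, against 0.932% of all tested genes. Lsm14a (chr7:34043562-34092740, minus strand) had 2839 to 6115 counts per library. The difference between the days was -0.05 (95% interval -0.34 to 0.23).

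Patl1 and Ddx6 had smaller differences with overlapping groups. Patl1 (chr19:11889673-11922458) measured 78.0, 66.3, 77.2 and 74.7 CPM in control KD at 0 day (A to D) and 73.0 and 70.5 CPM at 1 day (C and D). In YBX3 KD it measured 64.9, 62.4, 71.99 and 58.5 CPM at 0 day (A to D) and 68.4, 68.2 and 65.7 CPM at 1 day (B to D). Of the 7 YBX3 KD libraries, 4 lay under the lowest control KD value. The log2 fold change was -0.16 (SE 0.062, adjusted p = 0.222). Ddx6 (chr9:44514963-44552028), the most abundant of the genes, ranged from 239.3 to 270.9 CPM (median 253.7) in control KD and from 224.0 to 260.3 CPM (median 239.5) in YBX3 KD. Its log2 fold change was -0.08 (95% interval -0.19 to 0.03, adjusted p = 0.499), the tightest interval among the 9 decapping factors.

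Xrn1, the 5′ to 3′ exonuclease, had a mean above control KD and a wide spread. It ranged from 41.5 to 60.6 CPM (median 47.6) in control KD and from 45.4 to 68.5 CPM (median 51.8) in YBX3 KD. Replicate D was the highest library in each of the 4 groups, and the value of 68.5 CPM came from YBX3 KD replicate D at 1 day. The log2 fold change was 0.10 (95% interval -0.14 to 0.34, adjusted p = 0.717). Xrn1 lies at chr9:95836798-95939856.

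**Figure D3:**
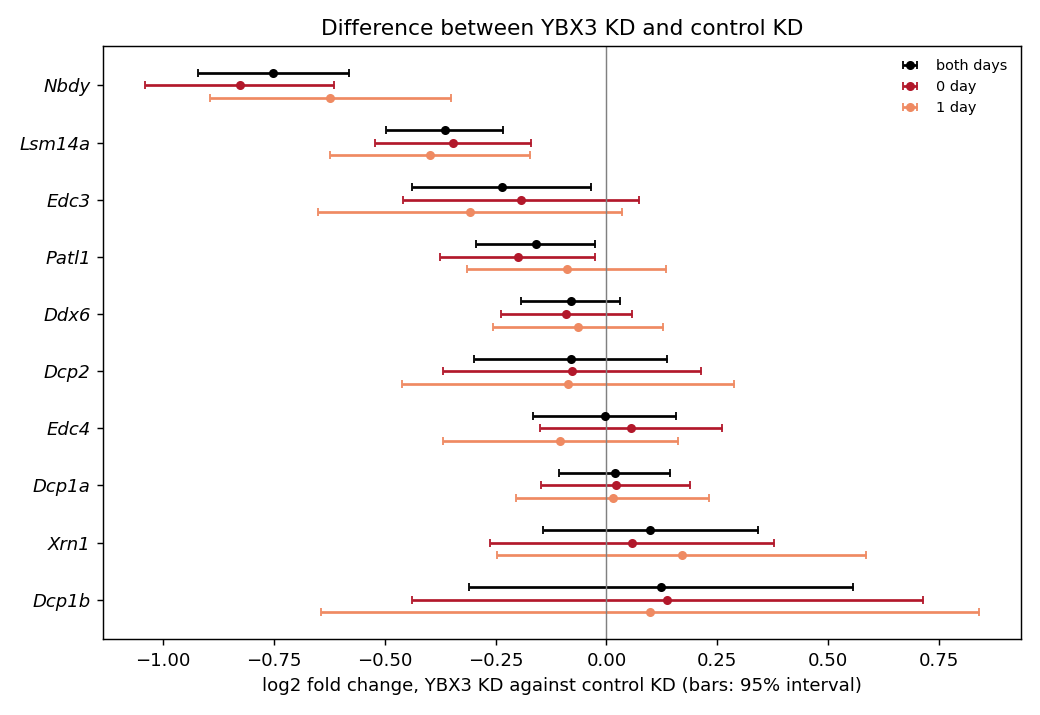
Log2 fold change of YBX3 KD against control KD for each gene, with its 95% interval, over both days (black), at 0 day (red) and at 1 day (orange). Nbdy lies at -0.75 and Lsm14a at -0.36 over both days, and the intervals of Ddx6, Dcp2, Edc4, Dcp1a, Xrn1 and Dcp1b include 0. The intervals of Nbdy are a description and no test, since this difference chose the gene.

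Over both days, none of the 9 decapping factors was called by edgeR, against 0.113% of all tested genes called (19 genes). DESeq2 called none of the 9 either, against 1.12% of all tested genes. With the letter as a block, DESeq2 called 1 of the 9, Lsm14a, against 2.52%. In edgeR without a block, 1 of the 9 passed an adjusted p of 0.05 (Lsm14a), against 2.34% of all tested genes (394 genes). In that fit 3 of the 9 (Lsm14a, Patl1 and Edc3) had an unadjusted p under 0.05, against 15.6% of all tested genes. With the letter as a block, Lsm14a and Edc3 passed 0.05 in edgeR, against 9.78% of all tested genes (1647 genes). Every YBX3 KD value was under every control KD value in 1.08% of tested genes (182 genes), Nbdy and Lsm14a among them. The median log2 fold change of the 10 genes was -0.0806, and that of all tested genes 0.000803. The first of these includes Nbdy, which was chosen on this difference, so it is a description and no support. The median absolute log2 fold change of all tested genes was 0.155.

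At single time points, none of the 9 was called and none passed an adjusted p of 0.05 by edgeR without a block. Of all tested genes, 0.0297% were called and 0.427% passed 0.05 at 0 day, and 0% were called and 0.0712% passed 0.05 at 1 day, where 1312 genes had an unadjusted p under 0.05 and DESeq2 called 25. An unadjusted p under 0.05 was reached by 2 of the 9 at 0 day (Lsm14a and Patl1), against 11% of all tested genes, and by 1 at 1 day (Lsm14a), against 7.79%. DESeq2 gave Lsm14a an adjusted p of 0.00247 at 0 day and 0.0266 at 1 day, and 3% and 0.902% of all tested genes passed 0.05 there. DESeq2 called none of the 9, against 0.629% of all tested genes at 0 day and 0.148% at 1 day. With the letter as a block it called none of the 9 at 0 day and Lsm14a at 1 day, against 1.49% and 0.932%.

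Libraries of the same replicate letter and day formed 6 pairs, 4 at 0 day and 2 at 1 day. In 6 of 6 pairs the YBX3 KD library had less Nbdy, at 51.84% to 71.68% of its control KD partner, and its highest percentage was in pair C at 1 day. Lsm14a was lower in 6 of 6 pairs (70.02% to 83.26%). Edc3 (70.02% to 92.14%) and Patl1 (78.29% to 94.16%) were also lower in 6 of 6. Dcp2 and Ddx6 were lower in 5 of 6 pairs, and Xrn1 was higher in 5 of 6 (95.5% to 129.2%). Edc4 and Dcp1a were lower in 3 and higher in 3, and Dcp1b was higher in 4. Ybx3 itself was at 9.747% to 20.63% of its partner. The share of all tested genes that were lower in 6 of 6 pairs was not computed. The counts of pairs are thus a description of these libraries only.

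**Figure D4:**
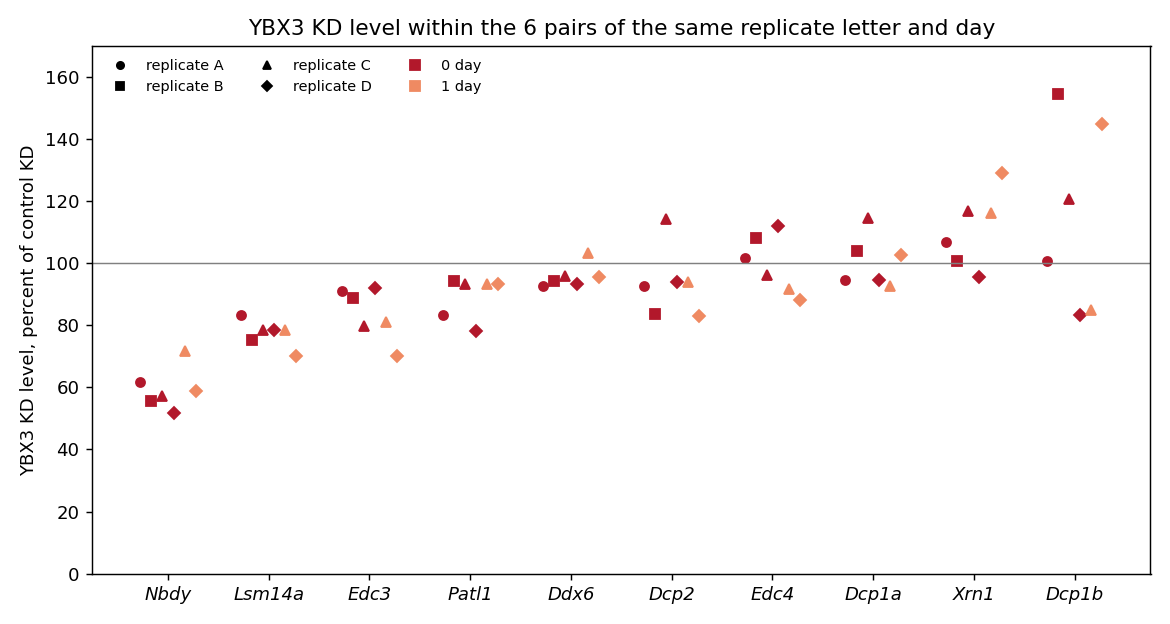
Level in YBX3 KD as a percentage of the control KD library of the same replicate letter and day, for 6 pairs per gene (red, 0 day; orange, 1 day; marker shape, letter; grey line, 100%). All 6 points of Nbdy, Lsm14a, Edc3 and Patl1 lie under 100%. The share of all tested genes for which this holds was not computed.

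The step from 0 day to 1 day, labelled as proliferating to differentiating myoblasts, was asked separately in each condition. These steps did not choose the genes. In control KD the summed markers of differentiated muscle did not rise (3.81 to 9.91 CPM at 0 day, 4.24 to 5.52 CPM at 1 day). In YBX3 KD their range at 1 day (2.61 to 20.6 CPM) extended past that at 0 day (5.19 to 9.29 CPM) on both sides. In control KD, Nbdy was at 18.8 ± 1.96 CPM (SD, n = 4) at 0 day and 17.96 ± 2.20 CPM (n = 2) at 1 day, a log2 difference of -0.06 (95% interval -0.32 to 0.19, adjusted p = 1). In YBX3 KD it was at 10.6 ± 0.624 CPM (n = 4) at 0 day and 11.7 ± 0.131 CPM (n = 3) at 1 day, a log2 difference of 0.14 (95% interval -0.09 to 0.37, adjusted p = 0.988). Neither step passed the test, although in YBX3 KD the 3 libraries at 1 day (11.5 to 11.8 CPM) all lay above the 4 at 0 day (9.71 to 11.1 CPM). The siRNA difference of Nbdy at 1 day minus that at 0 day was 0.20 (SE 0.16), given without a test because it is made of the differences that chose the gene.

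None of the 10 genes was called in either step, and none of the 9 decapping factors in the difference between the days, by edgeR or by DESeq2. None of them passed an adjusted p of 0.05 by either tool. Among all tested genes edgeR also called 0% in each of these 3 comparisons, and 0 genes passed an adjusted p of 0.05. The next counts are for the difference between the days, the step in control KD and the step in YBX3 KD, respectively. Of all tested genes, 444, 242 and 721 had an unadjusted p under 0.05 by edgeR. DESeq2 called 1, 0 and 2 of all tested genes, and 2, 6 and 4 passed its adjusted p of 0.05. The smallest p was that of Edc4 from 0 day to 1 day in YBX3 KD. Edc4 was at 80.0 ± 4.18 CPM (n = 4) at 0 day and 68.4 ± 5.68 CPM (n = 3) at 1 day, a log2 difference of -0.23 (SE 0.10), with an unadjusted p of 0.048 and an adjusted p of 0.988 from edgeR. No other of these tests had an unadjusted p under 0.05. In control KD, Edc4 was at 76.9 ± 9.28 CPM (n = 4) and 73.5 ± 4.26 CPM (n = 2). Lsm14a differed between the days by 0.08 (SE 0.098) in control KD and 0.03 (SE 0.087) in YBX3 KD on the log2 scale, with adjusted p-values of 1 and 0.988.

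The genes of mRNA decay that surround decapping were read from a list of 88 genes, of which 85 were tested over both days. They cover deadenylation, the ring of Lsm1 to Lsm7 that binds shortened tails, cap enzymes, P-body and silencing factors, nonsense-mediated decay, the exosome and poly(A)-binding proteins. None was called by edgeR, against 0.113% of all tested genes. At an adjusted p under 0.05, only Mex3c passed, that is 1.18% of the list against 2.34% of all tested genes. Mex3c encodes an RNA-binding ubiquitin ligase. It was lower in YBX3 KD (log2 fold change -0.42, SE 0.089, adjusted p = 0.0305). Every YBX3 KD value of Mex3c was under every control KD value, which held for 1.08% of all tested genes. DESeq2 called Mex3c and no other gene of the list, that is 1.18% of the list against 1.12% of all tested genes. Of the 85 genes, 12 had an unadjusted p under 0.05, 3 of them higher and 9 lower, or 14.1% against 15.6% of all tested genes.

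Of the 85 genes, 23 had a log2 fold change above 0 and 62 below 0, with a median of -0.0683 against 0.000803 over all tested genes. The median absolute log2 fold change of all tested genes was 0.155. After Mex3c, the lower genes with the smallest p were Cnot6, a deadenylase of the CCR4-NOT complex (-0.32, adjusted p = 0.0647), and Smg9, of nonsense-mediated decay (-0.28, adjusted p = 0.0922). The higher genes with the smallest p were Tnrc6c, a GW182 protein of miRNA silencing (0.23, adjusted p = 0.0757), Btg2, an antiproliferative gene whose protein recruits the deadenylase (0.51, adjusted p = 0.162), and Tob1, of the same family (0.21, adjusted p = 0.220). DESeq2 gave an adjusted p under 0.05 to 5 of the 85 (5.88%, against 7% of all tested genes), namely Mex3c, Cnot6, Tnrc6c, Smg9 and Tnrc6b. With the letter as a block, edgeR passed 7 of the 85 at 0.05 (8.24%, against 9.78%), 1 higher and 6 lower.

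All 7 genes of the Lsm1 to Lsm7 ring, which works with PATL1 on deadenylated mRNA, had a log2 fold change below 0 and none passed the test. The median was -0.281. The values ranged from -0.04 in Lsm1 to -0.32 in Lsm2 (adjusted p = 0.840 and 0.598). In 6 of these genes exactly 1 YBX3 KD library lay under every control KD library. Without YBX3 KD replicate D at 1 day the median was -0.134, and without control KD replicate C at 1 day it was -0.181. The direct partners of the decapping complex also did not pass. Pnrc2, which bridges decapping and nonsense-mediated decay, had -0.06 (adjusted p = 0.688), and Eif4enif1, the 4E-T protein that links the cap-binding protein to DDX6 and LSM14, had -0.10 (adjusted p = 0.593). Lsm14b, the paralog of Lsm14a, had -0.06 (95% interval -0.17 to 0.04, adjusted p = 0.581).

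**Figure D5:**
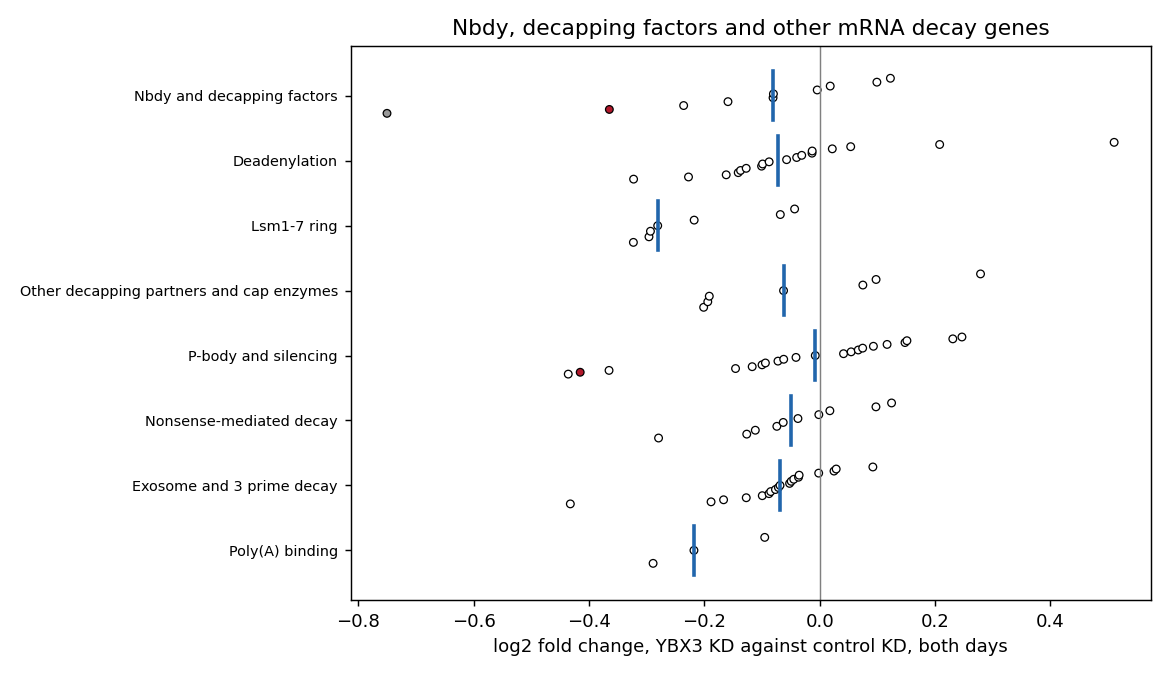
Log2 fold change of YBX3 KD against control KD over both days for Nbdy and the 9 decapping factors and for the 85 other mRNA decay genes by list, 1 point per gene, with the median of each list as a blue bar. Red points passed an adjusted p of 0.05 (Lsm14a and Mex3c), white points did not, and Nbdy is grey because it was chosen on this difference.

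The genes whose log2 CPM was most like that of Nbdy over the 13 libraries were Rhbdd1 (Pearson r 0.967), Anxa1 (0.963), G6pdx (0.963), Cpne3 (0.959) and Fam89b (0.957). All 5 were also lower in YBX3 KD, G6pdx by the least (log2 fold change -0.41) and Anxa1 by the most (-1.15), so the points share the siRNA groups as well as the libraries. With the group means removed, the r to Nbdy ranged from 0.244 in Cpne3 to 0.822 in Rhbdd1. Among the decapping factors Lsm14a came nearest (r 0.827), and with the group means removed its r was -0.322. Ybx3 had an r of 0.935, and -0.165 with the group means removed. These correlations describe the 13 libraries and carry no test.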

How the data were processed

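Per the labels and the study's methods, reads from an Illumina stranded mRNA kit were quantified by the authors with Salmon (GRCm39, Gencode M30), and the authors deposited estimated counts for each gene, not normalized. The values are whole numbers, and the step that summed them by gene was not given in the sources used here. Symbols, positions and lengths came from GENCODE vM39 by Ensembl identifier, which matched 54969 of 55642 rows.

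The 10 genes and all lists were chosen with earlier results of these data known. Besides these genes and Ybx3, the text names, by rule, decay genes that were called or had the 3 smallest p-values in each direction, and the 5 genes most like Nbdy. Lsm1, Lsm2, Lsm14b, Pnrc2, Eif4enif1 and Tnrc6b fall outside this rule and were named after their values were seen.

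Counts were filtered by filterByExpr, scaled by TMM (factors 0.9687 to 1.021) and tested with edgeR 4.0.16 in R 4.3.3 (estimateDisp, glmQLFit, glmQLFTest) on all 13 libraries. YBX3 KD was compared with control KD with the day as a term. Contrasts within a day or condition, and the difference between days, came from 1 coefficient per group. Benjamini-Hochberg adjustment covered 16848 genes. CPM are scaled by TMM, and log2 CPM used a prior count of 2. The tests were tried on simulated data with 200 changed genes. Over both days, a log2 change of 0.5 was called in 1.02% of these and passed 0.05 in 20.8%. For a log2 change of 1 the shares were 40.9% and 63.1%. For the day step in control KD, 0% were called at either size, and 0% (0.5) and 36.4% (1) passed 0.05. Small differences would thus often be missed. Alternatives were DESeq2 1.42.0, other scaling, filters and blocks, and leaving out libraries. P-values measure only the spread between these libraries.

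The replicate letter and the title number of the labels disagree at 1 day. Same-letter libraries of different groups (16 pairs, all of them) had correlated deviations from the group means (0.117 to 0.730, each over 0.1). With the same title number 8 of 16 did, so letters were taken to pair the samples. The main fits held no term for the letter, and fits with it as a block were alternatives. Over both days, edgeR passed 1647 genes at an adjusted p under 0.05 with this block and 394 without it. It called 23 and 19 genes, respectively. Adjusted p-values given without a block leave this pairing out, so not passing there does not settle the paired comparison.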

Additional observations from a re-analysis of the deposited data

Results flagged for a closer look

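Dcp2 in YBX3 KD replicate A at 0 day stood apart from its group at 46.7 CPM, against 36.6 to 37.9 CPM in replicates B to D, with a gap of 0.873 of the group's range. In control KD at 0 day, replicate A was also the highest library of Dcp2 (50.4 CPM). It was the 1 such value among 20 groups of 4 libraries looked at, of which chance would mark about 1 in 20.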

How the results depend on the processing

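Counts of the 10 genes past the call rule (adjusted p under 0.001 and fold above 1.3) include Nbdy, which was chosen on this difference, so they are a description and no support. Over both days the count was 1 (Nbdy), 0 with the title number as a block, 2 (with Lsm14a) by DESeq2 with the letter as a replicate block and 2 at an adjusted p under 0.05, and 0 to 1 with each library left out. It was 0 without control KD replicate A, B or C at 0 day, without control KD replicate D at 1 day and without any 1 of the 7 YBX3 KD libraries, and 1 without the other 2. At 0 day the count of 0 became 1 by DESeq2, by DESeq2 with the letter block and at 0.05. At 1 day it became 1 by DESeq2 and 2 (with Lsm14a) by DESeq2 with the letter block. Of all tested genes, DESeq2 called 188, 106 and 25 over both days, at 0 day and at 1 day, and 424, 251 and 157 with the letter block. The Nbdy fold change stayed between -0.81 and -0.69 over both days. Lsm14a kept an adjusted p under 0.05 over both days in all 22 alternatives (3.09e-10 to 0.0318). Of the 85 other decay genes, the count of 0 over both days became 1 by DESeq2 (1.12% of all tested genes), 2 by DESeq2 with the letter block (2.52%) and 1 at 0.05 (2.34%). Without all 4 libraries of replicate D, 102 of all tested genes were called, Nbdy alone among the 10. Besides these and the values given above, the letter block in edgeR changed no call. Genes with a seed match were 9 of 10 with 6 bases, against 64.2% of all 3′ UTRs, and 2 with 8, against 8.41%.

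Differences near 0 changed sign. Edc4 over both days was 0.0021 with at least 10 counts in every library and 0.0012 with the letter block. With a library left out, it was -0.046 to 0.033, and -0.0088 to 0.13 at 0 day. Likewise, Dcp1a was -0.0056 to 0.045 and Dcp1b -0.00061 to 0.22 over both days. The day step in control KD was 0.0069 for Nbdy with the title number as a block and -0.19 to 0.043 with a library left out, and for Edc4 -0.14 to 0.0077. For Lsm14a the difference between days was -0.12 to 0.029 and the day step in YBX3 KD -0.025 to 0.11. None of these with a changed sign passed 0.05. Leaving out a control KD library at 1 day left 1 such library, assumed to vary like the others. The causes were not tested.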
